A study of Mus musculus with 22 samples.

Results

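The miR-30 family was followed through 5 members, mmu-miR-30a-5p, mmu-miR-30b-5p, mmu-miR-30c-5p, mmu-miR-30d-5p and mmu-miR-30e-5p (the species prefix is left out from here on), which were found by name among the 1247 mouse miRNAs of the array. All 5 of 5 were well above background on all 22 arrays, and all 5 were among the 290 miRNAs bright enough to be tested. Between cyclosporin A (CsA) and solvent, with both doses pooled, no member differed past the test at 24 h or at 48 h (limma over 290 miRNAs). By the sample names of the value table, but not by those of the array files, miR-30e-5p and the partner strand miR-30a-3p were lower, and the partner strand miR-30c-1-3p was higher, after 48 h at 50 µM than in DMSO. By those names 110 of the 290 miRNAs were called there (37.9%), 80 of them higher (27.6%) and 30 lower (10.3%). Of the strands named, only miR-30c-1-3p kept its call with the slide as a block. Its rise was not called in the authors' own normalised values.

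A miRNA is a short RNA that guides the silencing complex to messenger RNAs, mainly by pairing of its seed, the bases near its 5′ end. The miR-30 members share 1 seed and therefore many predicted targets, and they differ in the bases after it. The family is abundant in many epithelial tissues, liver included. In human cells miR-30a is known to repress BECN1, a starter of autophagy, and in zebrafish the family is needed for the development of the bile ducts. Each hairpin gives a 5p strand, which carries the family seed, and a 3p strand with another seed.

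The mature sequences are shown because the members of this family can be told apart only by their later bases. Of the 5 members, 3 were found in the RefSeq sequences of the GRCm38.p6 build, and 1 further miRNA there, miR-384-5p, carries the same seed GUAAACA. Capitals mark the seed, bases 2 to 8 from the 5′ end.
miR-30a-5p: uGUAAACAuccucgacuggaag
miR-30e-5p: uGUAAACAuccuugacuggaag
miR-30c-5p: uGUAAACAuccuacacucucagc
miR-384-5p: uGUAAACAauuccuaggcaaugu
Counted from the 5′ end, miR-30a-5p and miR-30e-5p differed by the single substitution C13U over 22 bases. How far the array separates these nearly identical RNAs was not tested. From miR-30e-5p, miR-30c-5p differed at 5 of the 22 bases compared (read from miR-30c-5p, A13U, C14G, C18G, U19G and C20A), and the shared start ran over 12 bases. miR-30a-5p is encoded at chr1:23272274-23272295 on the plus strand. miR-30c-5p is encoded by 2 hairpins, Mir30c-2 at chr1:23291714-23291736 on the plus strand and Mir30c-1 at chr4:120769584-120769606 on the minus strand. miR-30e-5p lies at chr4:120772660-120772681 on the minus strand. Mir30c-1 and Mir30e lie 2983 bases apart, both within the span of the protein-coding gene Nfyc, which encodes a subunit of a CCAAT-binding factor. The array entry for miR-30c-5p cannot tell its 2 hairpins apart, because they give the same mature RNA, whereas their 3p strands differ at 3 of 22 bases, shown in capitals.
miR-30c-1-3p: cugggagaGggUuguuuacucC
miR-30c-2-3p: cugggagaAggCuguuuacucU

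The cells were primary hepatocytes of C57Bl6 mice, exposed in culture to CsA at 10 µM or 50 µM, or to 0.5% DMSO as solvent, for 24 h or 48 h. CsA is a calcineurin inhibitor given against graft rejection that can injure the liver. By the array files there were 3 arrays of 10 µM and 3 of 50 µM at 48 h, set against 6 of DMSO, and 3 of 10 µM and 2 of 50 µM at 24 h, set against 5 of DMSO. The labels name 3 experiments; the age, sex and number of the mice, and whether cells of several animals were pooled, are not stated there, so p-values measure the spread between these arrays. 1 protocol field speaks of HepG2 cells, a human line, while the other fields name mouse hepatocytes.

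The array files and the deposited value table disagree on sample names. Of the 22 columns of the value table, 16 held the values of an array filed under another name, and all 16 exchanges kept the time, the experiment and CsA or DMSO. For 8 of them the exchange was between the 2 CsA doses. Results with both doses pooled are therefore the same under either set of names, and each dose result is given under both. No label or header settles which set is right.

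The arrays were on 3 slides. The scanner software detected between 201 and 400 miRNAs on an array, and the signal percentile used for scaling lay between 188 and 605. All 6 of 6 hepatocyte miRNAs listed, miR-122-5p among them, were above background on all arrays, and their summed scaled signal was 46.6 to 68.7 on CsA arrays and 44.6 to 67.3 on DMSO arrays. Lists for leukocytes (4 miRNAs), biliary cells (5) and erythroid cells (2) had 0 miRNAs above background on any array. Of the endothelial list miR-126-3p was above background on 20 arrays, and of the stellate list miR-145a-5p on 12.

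A value is the log2 of the probe's processed signal over the array's 75th percentile, so levels of different members, read by different probes, have no common scale. Together the members took 0.359% to 0.851% of an array's total gene signal. Each member varied little: over the 22 arrays miR-30d-5p ranged over 1.53-fold, miR-30a-5p over 1.75-fold, miR-30b-5p over 1.93-fold, miR-30e-5p over 2.03-fold and miR-30c-5p over 2.12-fold. Their SDs on the log2 scale, 0.16 to 0.30, were all under the median SD of 0.43 over the 156 miRNAs seen on every array.

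**Figure D1:**
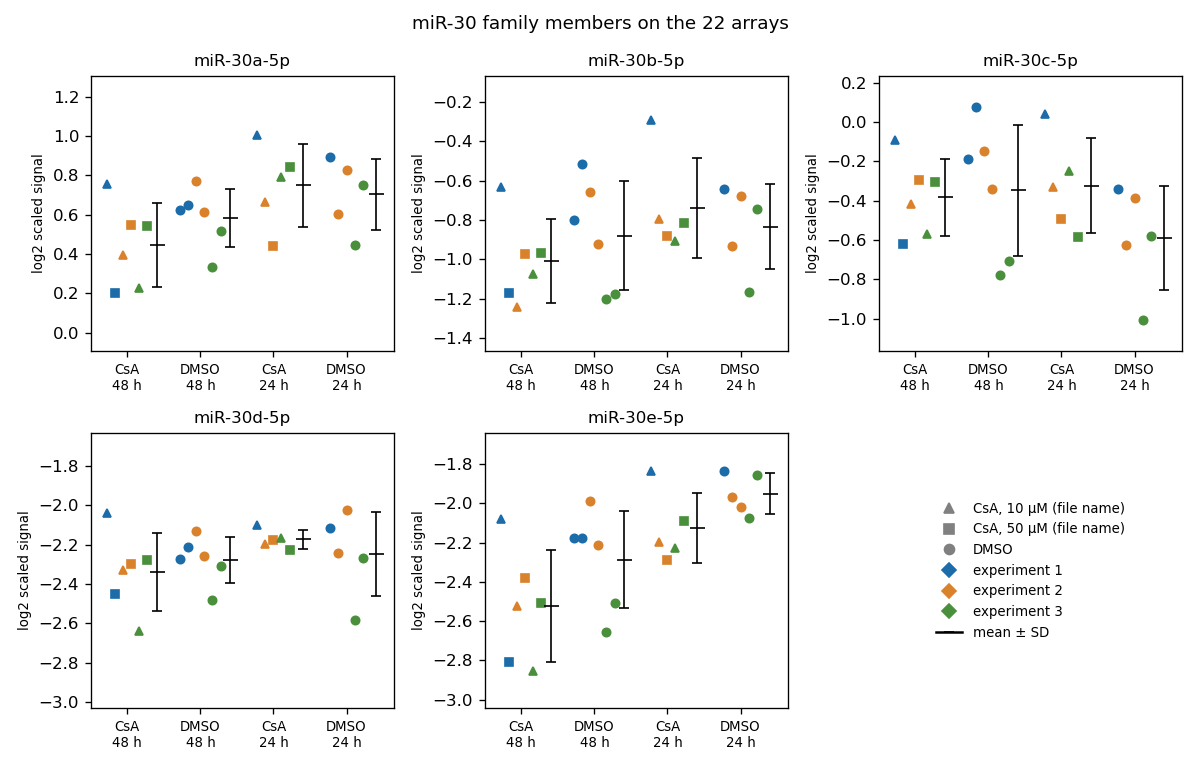
Log2 scaled signal of each miR-30 member (y axis) on each array, in CsA and DMSO at 48 h and 24 h (x axis); colours are experiments, triangles and squares the CsA doses by the array files, circles DMSO, and black bars the mean ± SD. Within every member the groups overlap, and the lowest miR-30e-5p value, -2.85, is a CsA array at 48 h.

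The ratio of 2 members varied less from array to array than that of the median pair of miRNAs. The SD of the log2 ratio of 2 members on the same array was 0.12 for miR-30a-5p to miR-30d-5p and 0.33 for miR-30c-5p to miR-30e-5p, the lowest and highest of the 10 pairs. The median over all 12090 pairs of miRNAs seen on every array was 0.64. Each member alone varied little, which also keeps these SDs small, so they do not by themselves show that members moved together. The lowest lay under the SDs of its 2 members alone (0.21 and 0.16). The highest lay above those of its own 2 members (0.27 and 0.30). For 0 of the 5 members did the groups separate without overlap. Over all miRNAs tested that share was 1.38% for CsA against DMSO at 48 h and 0.345% at 24 h, and for 48 h against 24 h 2.76% in CsA and 0.345% in DMSO. All 5 members had their highest mean in experiment 1 and their lowest in experiment 3: miR-30c-5p averaged -0.19, -0.38 and -0.60 in experiments 1, 2 and 3, and miR-30e-5p -2.15, -2.20 and -2.35. These means are a description of 6, 8 and 8 arrays, and each experiment held both treatments.

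CsA at 24 h left the members close to their DMSO levels. miR-30c-5p lay at 0.04, -0.33, -0.25, -0.49 and -0.58 on the CsA arrays, against -0.34, -0.62, -0.39, -1.01 and -0.58 on the DMSO arrays. Only 1 CsA array, 10 µM replicate 1, lay above 0, and the groups overlapped. The fitted change was 0.27 ± 0.17 on the log2 scale (SE, n = 5 and 5, limma, adjusted p = 0.827). miR-30e-5p averaged -2.13 ± 0.18 in CsA and -1.95 ± 0.10 in DMSO (SD, n = 5 each), a change of -0.18 ± 0.14 (SE, adjusted p = 0.886). miR-30a-5p, miR-30b-5p and miR-30d-5p changed by 0.05, 0.09 and 0.07; quantile normalization turned miR-30a-5p to -0.06, and normexp with quantile normalization turned miR-30a-5p to -0.06 and miR-30d-5p to -0.0019. Each value is relative to its own array, so it does not show cell number or total RNA per cell. Fewer cells of 1 kind and less of a miRNA per cell cannot be told apart in such whole-culture RNA. Of the 5 members, 0 were called, and so were 0 of all 290 miRNAs (0%), with 18 (6.21%) at an unadjusted p under 0.05. The median change was 0.07 over the members and 0.05 over all miRNAs tested. The 95% intervals of the members ran from -0.47 to 0.61, so no change of over 1.53-fold lay inside any of them.

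At 48 h all 5 members were nominally lower in CsA over all arrays, none past the test, and not within each slide. miR-30e-5p lay at -2.85, -2.52 and -2.08 at the lowest, the median and the highest of 6 CsA arrays, against -2.66, -2.20 and -1.99 on 6 DMSO arrays. The lowest 2 arrays of the series, at -2.85 and -2.81, were both CsA, but the remaining CsA arrays fell within the range of DMSO. Its change was -0.24 ± 0.13 (SE, limma, adjusted p = 0.233). miR-30a-5p averaged 0.45 ± 0.21 in CsA and 0.59 ± 0.15 in DMSO (SD, n = 6 each), a change of -0.14 ± 0.11 (SE, adjusted p = 0.439). miR-30b-5p changed by -0.13 ± 0.14, miR-30d-5p by -0.06 ± 0.10 and miR-30c-5p by -0.04 ± 0.15. Over all miRNAs tested 3 of 290 were called (1.03%), 0 of them members, and 80 (27.6%) had an unadjusted p under 0.05. The members' median was -0.13, against 0.10 over all miRNAs tested. Their 95% intervals ran from -0.51 to 0.28. Scaling over all probes moved the median of all miRNAs tested to -0.16 and that of the members to -0.55. Apart from the floor, that scaling shifts all miRNAs of an array alike. It therefore cannot test whether the members lie below the median of all. Only 14.4% of probe-array pairs were above background, so the percentile of all probes was read from dim probes.

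Slides touch this comparison: slide 1 held 4 CsA arrays and 1 DMSO array of 48 h, slide 2 held 0 and 2, and slide 3 held 2 and 3. The members' means were lower on slide 1 than on the others, for example -2.40 for miR-30e-5p, against -2.09 on slide 2 and -2.21 on slide 3. Within slide 3, CsA minus DMSO at 48 h was 0.07, 0.13, 0.22 and 0.13 for miR-30a-5p, miR-30b-5p, miR-30c-5p and miR-30d-5p, and -0.01 for miR-30e-5p, so 4 of 5 members were nominally higher in CsA there. Within slide 1, with 1 DMSO array, it was 0.06 for miR-30b-5p and 0.23 for miR-30c-5p, and -0.17, -0.12 and -0.13 for miR-30a-5p, miR-30d-5p and miR-30e-5p. With slide as a block the changes shrank to -0.04, -0.02, -0.02 and -0.15 for miR-30a-5p, miR-30b-5p, miR-30d-5p and miR-30e-5p, and miR-30c-5p turned to 0.08. The lower values in CsA at 48 h were therefore not seen alike within slides. Within experiments 1, 2 and 3 the change of miR-30e-5p was -0.27, -0.35 and -0.10, while in experiment 3 miR-30b-5p and miR-30c-5p were at 0.17 and 0.30. The part of the slide in the pooled value was not tested beyond these values and the blocked fits. The CsA effect at 48 h minus that at 24 h was negative for all 5 members, from -0.30 ± 0.22 for miR-30c-5p to -0.06 ± 0.19 for miR-30e-5p (SE). Of the 290 miRNAs 0 were called for it (0%), with 7 (2.41%) at an unadjusted p under 0.05, and the members' adjusted p was 0.796 to 0.9.

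**Figure D2:**
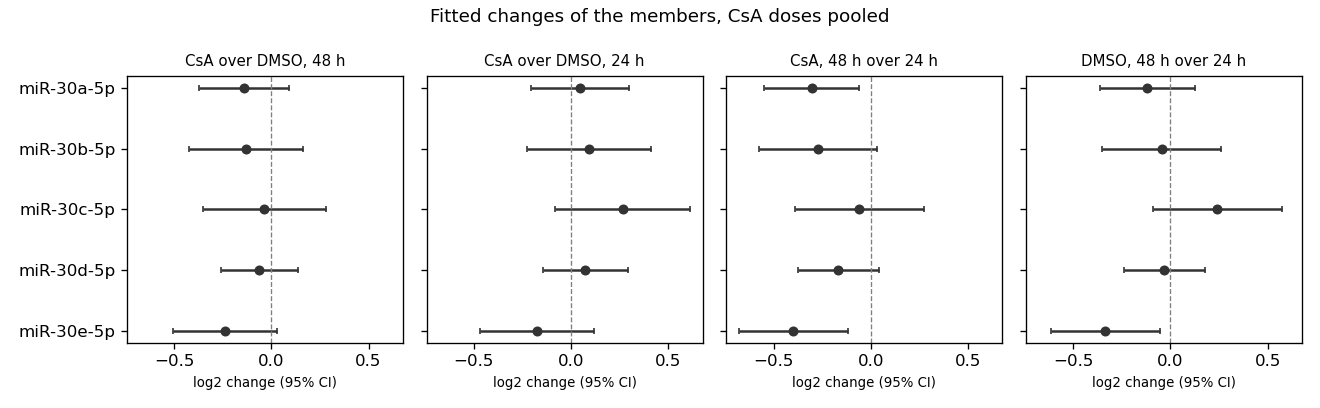
Fitted log2 change of each member with its 95% confidence interval (x axis; points are estimates from limma over 22 arrays) in 4 comparisons with both CsA doses pooled. All intervals for CsA over DMSO include 0, and those of miR-30e-5p for 48 h over 24 h lie below 0, as does that of miR-30a-5p in CsA, without passing the adjustment.

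Of the comparisons with doses pooled, those of culture time gave the largest nominal change among the 5 members, in miR-30e-5p. In DMSO it lay at -2.18, -2.18, -1.99, -2.21, -2.66 and -2.51 at 48 h, against -1.84, -1.97, -2.02, -2.07 and -1.86 at 24 h. Only 1 of the 6 arrays at 48 h, -1.99, reached into the 24 h range. The change was -0.34 ± 0.13 (SE, n = 6 and 5, unadjusted p = 0.0212, limma adjusted p = 0.31). In CsA the change from 24 h was -0.40 ± 0.13 (SE, n = 6 and 5, unadjusted p = 0.00769, adjusted p = 0.134), and it was called without 10 µM 48 h replicate 1, at -0.49 (adjusted p = 0.0498). The share of all miRNAs called without that array is not given here. miR-30a-5p changed by -0.30 ± 0.12 in CsA (adjusted p = 0.2) and by -0.12 ± 0.12 in DMSO (adjusted p = 0.874). miR-30c-5p went the other way in DMSO, with 0.24 ± 0.16 (adjusted p = 0.61), and was at -0.06 ± 0.16 in CsA. The CsA arrays were uneven by slide. Slide 1 held 4 of 48 h and 1 of 24 h, slide 2 held 0 and 3, and slide 3 held 2 and 1. Within slides 1 and 3 miR-30e-5p changed by -0.35 and -0.10 in CsA, and miR-30a-5p by -0.10 and -0.02. With slide as a block these members were at -0.32 and -0.21 in CsA, and miR-30e-5p at -0.38 in DMSO, none of them called. Among the members 0 were called in either comparison; over all miRNAs tested it was 1 of 290 in CsA (0.345%) and 0 of 290 in DMSO (0%), with 50 (17.2%) and 38 (13.1%) at an unadjusted p under 0.05. The hepatocyte miRNA miR-122-5p moved in the same direction, by -0.30 ± 0.09 in CsA and -0.27 ± 0.09 in DMSO (adjusted p = 0.107 and 0.18). By mean level the groups of miR-30e-5p stood in the order DMSO 24 h, CsA 24 h, DMSO 48 h and CsA 48 h, with gaps of 0.18, 0.16 and 0.24 between neighbours. For all 5 members every gap between neighbouring groups was smaller than the larger SD of those 2 groups.

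Because miR-30c-5p and miR-30e-5p are the members that diverged, their ratio was taken on each array, where scaling cancels. This ratio was chosen after its values were seen. On the log2 scale it was 1.99, 2.25, 1.84, 1.87, 1.88 and 1.80 in DMSO at 48 h, against 1.50, 1.34, 1.63, 1.07 and 1.28 in DMSO at 24 h, so the groups did not overlap. In CsA it was 1.99, 2.11, 2.28, 2.19, 2.09 and 2.20 at 48 h, against 1.87, 1.87, 1.98, 1.80 and 1.51 at 24 h, again with no overlap. The ratio was thus 1.49-fold higher at 48 h than at 24 h in DMSO, a log2 difference of 0.58, and the difference was 0.34 in CsA. In every experiment that could be compared, it was higher at 48 h, by 0.63, 0.37 and 0.67 in DMSO and by 0.21, 0.27 and 0.50 in CsA.

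The size of this shift is not unusual among miRNAs. Of all 12090 pairs of miRNAs seen on every array, 28.1% differed more between DMSO at 48 h and at 24 h, and 3.42% had groups that did not overlap. In CsA those shares were 51.2% and 3.69%. Of the 10 pairs of members, 2 did not overlap in DMSO (miR-30c-5p with miR-30b-5p and with miR-30e-5p), and 2 in CsA (miR-30c-5p with miR-30a-5p and with miR-30e-5p). For miR-30c-5p to miR-30e-5p the exact two-sided permutation p over arrays was 0.00216 in DMSO, the smallest that 462 permutations can give, and 0.00433 in CsA. Adjusted over all 12090 pairs these became 0.0984 and 0.113, and 0 pairs passed in either comparison (0%). A pair at the smallest possible p had an adjusted p of 0.0984 in DMSO and 0.0902 in CsA. No single pair could therefore pass, however large its shift, so this adjustment cannot decide on the ratio. Between CsA and DMSO the ratio was 0.20 higher in CsA at 48 h and 0.44 higher at 24 h, with overlapping groups and adjusted p of 0.253 and 0.327. The smallest possible p was 0.00216 at 48 h and 0.00794 at 24 h, so the adjusted p was limited there too. In these comparisons 0 of the 10 pairs of members were without overlap, against 2.66% of all pairs at 48 h and 2.52% at 24 h.

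**Figure D3:**
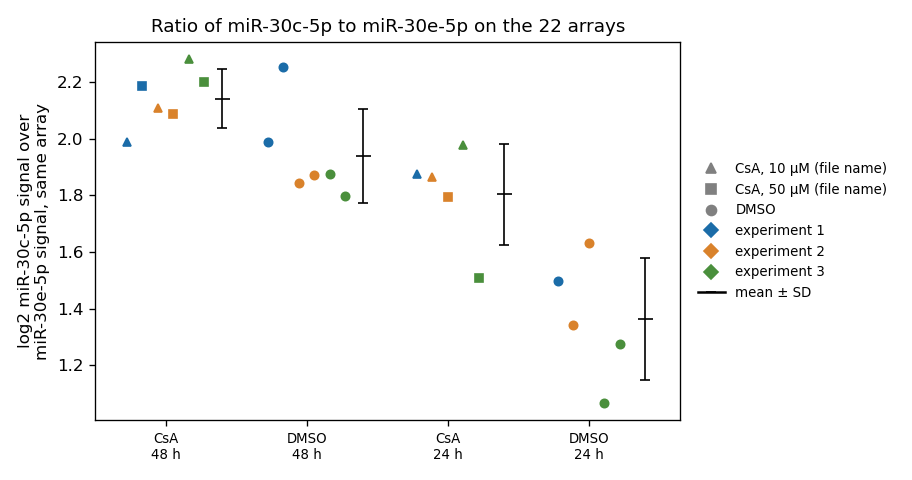
Log2 ratio of miR-30c-5p to miR-30e-5p signal (y axis) on each array, in CsA and DMSO at 48 h and 24 h (x axis); colours are experiments, triangles and squares the CsA doses by the array files, circles DMSO, and black bars the mean ± SD. In DMSO all 48 h arrays, 1.80 or higher, lie above all 24 h arrays, 1.63 or lower.

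With doses named by the array files, no member was called at either dose. At 48 h and 50 µM miR-30e-5p averaged -2.57 ± 0.22 (SD, n = 3), and in DMSO -2.29 ± 0.25 (SD, n = 6). Its change was -0.28 ± 0.16 at 50 µM (SE, limma, adjusted p = 0.575) and -0.20 ± 0.16 at 10 µM (adjusted p = 0.506). The other members changed by -0.16 to -0.06 at 50 µM. Over all miRNAs tested 19 of 290 were called at 10 µM (6.55%) and 1 at 50 µM (0.345%). At 24 h 0 of 290 were called at either dose (0%), with 21 (7.24%) at 10 µM and 7 (2.41%) at 50 µM at an unadjusted p under 0.05; the members' medians were 0.12 at 10 µM and -0.02 at 50 µM. miR-30c-5p was at 0.41 ± 0.19 for 10 µM at 24 h (SE, unadjusted p = 0.0457, adjusted p = 0.648), and at 0.24 by the value table's names. Between 50 µM and 10 µM, 0 miRNAs were called at 48 h or 24 h (0% each), with 16 (5.52%) and 3 (1.03%) at an unadjusted p under 0.05, and miR-30e-5p differed by -0.08 ± 0.19 at 48 h and -0.11 ± 0.21 at 24 h (SE), both of which turned positive under scaling over all probes and under quantile normalization. At 48 h all 5 members were nominally lower at 50 µM, but all 5 were nominally higher under each of those settings.

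With doses named by the value table, 1 member was lower at 48 h and 50 µM. The 3 arrays then called 50 µM had miR-30e-5p at -2.81, -2.52 and -2.85, against -2.66 to -1.99 on the 6 DMSO arrays with a median of -2.20. All 3 lay below the DMSO median, and 1 of them lay within the DMSO range. The change was -0.44 ± 0.14 (SE, limma, adjusted p = 0.0164), which is 1.36-fold lower. The other members changed by -0.31 ± 0.12 for miR-30a-5p (adjusted p = 0.0549), -0.28 ± 0.16 for miR-30b-5p (0.164), -0.20 ± 0.11 for miR-30d-5p (0.146) and -0.19 ± 0.18 for miR-30c-5p (0.427). Of all miRNAs tested 110 were called here (37.9%), 80 of them higher (27.6%) and 30 lower (10.3%), so 1 of 5 members called lower stands beside 10.3% of all. For 77 of 290 miRNAs (26.6%) the 2 groups of arrays did not overlap, and for 0 of the 5 members. The median change was -0.28 over the members and 0.13 over all miRNAs tested.

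The call for miR-30e-5p rested on few arrays. Without 50 µM replicate 1 it was -0.40 (adjusted p = 0.0633) and without 50 µM replicate 3 it was -0.38 (adjusted p = 0.0934), by the value table's names. Without DMSO replicate 6 by those names, miR-30a-5p was called as well, at -0.36 (adjusted p = 0.0169). That fit called 173 of all 290 miRNAs, against 110 with all arrays. All 3 arrays called 50 µM at 48 h by those names were on slide 1, with 1 DMSO array of 48 h. Within that slide the change of miR-30e-5p was -0.22. Blocking on slide gave -0.34 (adjusted p = 0.147), a fit that called 17 miRNAs lower (5.86%) and 80 in all (27.6%). Within experiments 1, 2 and 3, each with 1 array at 50 µM and 2 of DMSO, it was -0.63, -0.42 and -0.27. With experiment number as a block the change had adjusted p = 0.00572, and miR-30a-5p, at -0.31, was then also called lower (adjusted p = 0.0332); that fit called 58 miRNAs lower (20%) and 157 in all (54.1%). In the authors' own normalised values, miR-30e-5p was at -0.84 (adjusted p = 0.00594), miR-30b-5p at -0.61 (0.0351) and miR-30d-5p at -0.57 (0.0212), beside 62 of 290 lower (21.4%) and 104 called in all (35.9%). At 10 µM, by the same names, the members changed by -0.04 to 0.12 and 0 of 5 were called, with 3 of 290 in all (1.03%). Between 50 µM and 10 µM at 48 h, 84 of 290 miRNAs were called (29%), 0 of them members; miR-30e-5p differed by -0.40 ± 0.16 (SE, adjusted p = 0.067). There the experiment block called 2 members of 118 miRNAs (40.7%), and the authors' own values 2 of 69 (23.8%). At 24 h and 50 µM 11 of 290 were called (3.79%), 0 of them members.

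**Figure D4:**
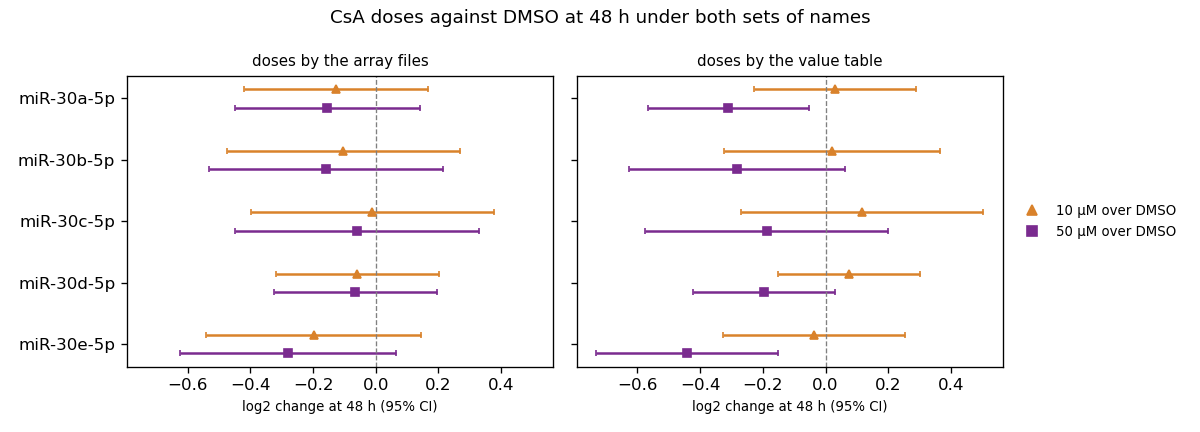
Fitted log2 change at 48 h (x axis, with 95% confidence interval) of each member at 10 µM (triangles) and 50 µM (squares) CsA over DMSO, with doses named by the array files (left) and by the value table (right). In both panels all 5 members lie lower at 50 µM than at 10 µM, by -0.08 to -0.01 on the left and -0.40 to -0.27 on the right. The order on the left depends on the scaling. With scaling over all probes, or quantile normalization with or without normexp, all 5 were higher at 50 µM by the file names. On the right miR-30e-5p at -0.44 is the only member called, and on the left none is.

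The partner strands of the family were dimmer. miR-30a-3p, from the hairpin of miR-30a-5p, was above background on 20 of 22 arrays, miR-30c-1-3p on 15, miR-30e-3p on 5 and miR-30c-2-3p on 3. miR-30b-3p, miR-30d-3p and miR-384-5p, which shares the seed, were above background on 0 of 22 arrays. With doses pooled, miR-30c-1-3p averaged -3.35 ± 0.57 in CsA and -4.10 ± 0.42 in DMSO at 48 h (SD, n = 6 each), a change of 0.74 ± 0.24 (SE, limma, adjusted p = 0.101), above background on 5 and 3 arrays. With the experiment number as a block, which pairs the arrays at 48 h, it was called (adjusted p = 0.0495), in a fit that called 25 of 290 miRNAs (8.62%), 18 of them higher (6.21%). With slide as a block it was 0.50 and not called (adjusted p = 0.425). It was also called without 10 µM replicate 1 (adjusted p = 0.0275), 50 µM replicate 2 (0.041) or DMSO replicate 5 (0.0194), by the file names. The share of all miRNAs called in those fits is not given here, so these calls cannot be set beside it. miR-30a-3p lay between -4.28 and -3.69 in CsA and between -3.94 and -3.45 in DMSO, a change of -0.30 ± 0.13 (SE, adjusted p = 0.148), above background on 4 and 6 arrays.

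By the value table's names the partner strands differed most at 48 h and 50 µM. miR-30c-1-3p lay at -3.16, -2.81 and -2.70 on the 50 µM arrays, against a lowest, median and highest of -4.41, -4.29 and -3.36 on the DMSO arrays. The groups did not overlap, as for 26.6% of all miRNAs tested, and it was above background on 3 of 3 arrays at 50 µM and 3 of 6 of DMSO. The change was 1.20 ± 0.23 (SE, limma, adjusted p = 0.000555, beside 27.6% of miRNAs called higher). Since some DMSO arrays were at the floor of -4.41 its size of 2.30-fold is open toward larger values. It was 0.95 when blocked on slide (adjusted p = 0.00922, beside 21.7% of miRNAs called higher) and kept its size with the experiment block (adjusted p = 0.000121, beside 34.1%). It stayed called without any 1 of the 9 arrays, at 1.11 to 1.35. In the authors' own normalised values it was 0.49 (adjusted p = 0.386, with 14.5% of miRNAs called higher), and only 1 of its 4 probes left the floor. By the file names it was 0.60 and not called. On the same arrays the other strand of that hairpin, miR-30c-5p, changed by -0.19, and miR-30e-5p, from the neighbouring hairpin within Nfyc, was the member called lower.

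miR-30a-3p went the other way. It lay at -4.28, -4.21 and -4.14 on the 50 µM arrays by the value table's names, against -3.94 to -3.45 on the DMSO arrays. There was no overlap, as for 26.6% of all miRNAs tested. The change was -0.50 ± 0.14 (SE, limma, adjusted p = 0.00933, beside 10.3% of miRNAs called lower). It was above background on 2 of 3 arrays at 50 µM and 6 of 6 of DMSO, so the size of the change is open. It stayed called without any 1 of the 9 arrays, at -0.55 to -0.45. With slide as a block it was -0.36 and no longer called (adjusted p = 0.123), and by the file names it was -0.29 (adjusted p = 0.575). With the experiment block by the value table's names it kept its size and its call (adjusted p = 0.00572, beside 20% of miRNAs called lower). In the authors' own normalised values it was -2.76 (adjusted p = 0.000602, beside 21.4% of miRNAs called lower). Its dimmer probe changed by -0.05. For the family members themselves, the probes of 1 member differed by at most 0.11 in log2 change in these comparisons.

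Among the 151 other miRNAs seen on every array, those whose levels ran most like the mean of the 5 members were miR-16-5p, let-7g-5p, miR-29a-3p, miR-192-5p and let-7c-5p. The SD of their log2 difference from that mean over the 22 arrays was 0.09, 0.11, 0.11, 0.12 and 0.12, against a median of 0.54 over the 151. Between CsA and DMSO at 48 h with doses pooled they changed by 0.02, -0.23, -0.12, -0.28 and -0.18, and 0 of the 5 were called.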

How the data were processed

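miRNAs of 22 cultures were measured on 1-colour Agilent arrays (49880 non-control spots, 3105 probes). Spot intensity had been background-corrected in Feature Extraction 10.7.3.1, according to what stands per the file headers. The deposited value table holds log2 intensities; the submitters' processing notes name R 2.15.2. Quantile normalization of the files' total gene signal, with a minimum of 0.5, rebuilt all 22 columns to within 1e-06, which showed the exchanged names.

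Unflagged spots of a probe were averaged and scaled to the 75th percentile of 281 probes, those bright on every array. A floor of 0.0471 (-4.41 on the log2 scale) was set, and the brightest probe stood for a miRNA. No spot was saturated. The 290 miRNAs above background on at least 3 arrays were tested with limma 3.58.1 in R 4.3.3, with CsA doses pooled (4 groups) and apart (6 groups); calls needed a Benjamini-Hochberg adjusted p under 0.05. The number of arrays limits the precision. On simulated data for CsA against DMSO at 48 h (290 miRNAs), 43.3% of changes of 0.5 and 76.7% of changes of 1 (log2) were recovered, with 1 false call. There 30 miRNAs were changed at each size, and the noise was independent between miRNAs and arrays. In the real data, arrays of 1 experiment shared deviations at 48 h, so these rates may not hold for them. Named were the 5 members, their partner strands, same-seed miRNAs, the 5 miRNAs most alike, and miR-122-5p. Members, lists and tests were chosen with earlier results of these data known. The experiment numbers pair CsA and DMSO at 48 h (correlations of deviations 0.705, 0.394 and 0.772) but not at 24 h by the same limit of 0.1 (0.394, 0.0551 and 0.303).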

Additional observations from a re-analysis of the deposited data

Results flagged for a closer look

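In CsA at 24 h, miR-30b-5p lay at -0.29 (log2) on 10 µM replicate 1, apart from the 4 other arrays between -0.91 and -0.80. Among 24 groups of arrays examined this way, for 5 members and the miR-30c-5p to miR-30e-5p ratio, it was the 1 that stood out, and chance sets apart about 1 in 20 such groups. Without that array the change of miR-30b-5p between CsA and DMSO at 24 h was -0.02, and it was not called either way.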

How the results depend on the processing

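With doses pooled, 0 members were called under every alternative run on all arrays. By the file names, leaving out 1 array gave 0 to 1 members called for CsA 48 h over 24 h (miR-30e-5p, adjusted p = 0.0498 at the lowest) and 0 in the other comparisons. By the value table's names it gave 0 to 2 for 50 µM over DMSO at 48 h, where 72 to 173 of all 290 miRNAs were called. For 50 µM over DMSO at 48 h the count was 0 by the array files, 3 in the value table's values and 1 by its names. It was 2 by its names with the experiment number as replicate block. Of all 290 miRNAs these settings called 0.345%, 35.9%, 37.9% and 54.1%, in that order. For 50 µM over 10 µM at 48 h the count of members was 2 in the value table's values, beside 23.8% of all miRNAs. By its names with that block it was 2, beside 40.7% of all. The replicate block with the file names called 0 members in every comparison, but brought miR-30c-1-3p, at 0.742 for CsA over DMSO at 48 h, past the threshold; for that comparison it called 25 of 290 miRNAs, against 3 without the block. The causes were not tested.

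The members' median with scaling over all probes was -0.553 for CsA over DMSO at 48 h, -0.615 at 10 µM, -0.487 at 50 µM, -0.610 for CsA 48 h over 24 h and -0.595 for the difference of CsA effects. In the value table's values it was -0.573 for 50 µM over DMSO and -0.581 for 50 µM over 10 µM at 48 h, and by its names -0.304 for 50 µM over 10 µM, with the replicate block too. For 50 µM over 10 µM at 24 h it was 0.0528 with quantile normalization and 0.0283 with normexp added.

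None of the changes that turned sign was called. CsA over DMSO at 24 h was -0.0615 (quantile) and -0.0551 (normexp) for miR-30a-5p and -0.0019 for miR-30d-5p (normexp). With slide as a block miR-30c-5p was 0.0824 for CsA over DMSO at 48 h, 0.0395 at 50 µM and 0.0648 for CsA 48 h over 24 h, and miR-30e-5p 0.0612 for the difference of CsA effects. For miR-30e-5p, 50 µM over 10 µM was 0.0229 (all probes), 0.0528 (quantile) and 0.0283 (normexp) at 24 h, and 0.0976, 0.0860 and 0.0257 at 48 h. At 48 h the other members were above 0 too under each of these settings. In DMSO, 48 h over 24 h was 0.0244 for miR-30b-5p and 0.0390 for miR-30d-5p (all probes) and 0.00616 for miR-30d-5p (mean of probes). The log2 ratio of miR-30c-5p to miR-30e-5p for CsA 48 h over 24 h was 0.189 with normexp (exact permutation p = 0.0866).

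Leaving out 1 array gave these ranges where a sign or call changed. CsA over DMSO at 24 h ran from -0.0180 to 0.123 for miR-30a-5p, -0.0168 to 0.142 for miR-30b-5p and -0.0103 to 0.130 for miR-30d-5p. For miR-30c-5p it ran from -0.122 to 0.0495 at 48 h and from -0.146 to 0.0473 at 50 µM. For miR-30e-5p, 50 µM over 10 µM ran from -0.204 to 0.0208 at 24 h and -0.264 to 0.122 at 48 h, and the difference of CsA effects from -0.152 to 0.0110. In DMSO, 48 h over 24 h ran from -0.130 to 0.0187 for miR-30b-5p and -0.115 to 0.0248 for miR-30d-5p, and in CsA from -0.126 to 0.0307 for miR-30c-5p and -0.487 to -0.325 for miR-30e-5p. For CsA over DMSO at 48 h miR-30c-1-3p ran from 0.611 to 0.894 and the ratio from 0.175 to 0.266, with exact permutation p from 0.00649 to 0.0779. Averaging probes gave no value for miR-30c-1-3p at 50 µM, where 3 of 4 probes stayed at the floor, and the fit without a filter left out miRNAs that never left it.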
